A study of Mus musculus with 94 samples.

Results

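Kit and Cd34 were followed through 94 single basophils, taken from bone marrow of C57BL/6 females. They are 2 of the 46078 mouse genes in the count table and were taken by gene identifier. Basophils are granulocytes that carry FcεRI, the high-affinity receptor for IgE. All cells were sorted alive as lineage-negative, Sca1-negative and FcεRI-positive, 47 from a CD34-positive and 47 from a CD34-negative gate, from 3 mice, with no treatment named. The labels do not tie a cell to a mouse, which leaves 1 sample per gate. Values are therefore described without tests, and intervals cover counting error only. After a filter on quality 46 cells remained in each gate.

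Kit is the receptor tyrosine kinase for stem cell factor, the product of Kitl. On binding the ligand it pairs, phosphorylates itself and signals through PI3 kinase, RAS and STAT5. It is found on blood stem and progenitor cells and on mast cells, which keep it when mature, whereas mature basophils carry little of it. Cd34 encodes a heavily glycosylated surface sialomucin of stem and progenitor cells, and its protein was the marker that separated the gates.

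Kit (ENSMUSG00000005672) is a protein-coding gene on chromosome 5, from 75574916 to 75656722 on the plus strand of GRCm38. Cd34 (ENSMUSG00000016494) is a protein-coding gene on chromosome 1, from 194938819 to 194961279, also on the plus strand. In the GENCODE M21 annotation no other gene shares exon bases with Kit. The antisense gene Gm16897 shares 148 of the 7290 exon bases of Cd34, and without a known strand setting, reads there cannot be told apart. Gm16897 had 47 reads in the CD34-negative gate, in 7 cells without a Cd34 read. Among CD34-positive cells, 9 held 87 of its reads, of which 4 also had a Cd34 read.

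The stretches upstream of the 2 genes are shown because both genes were far higher in the same gate, yet their sequences differ in composition. Each stretch runs from 250 to 76 bases before the RefSeq start, on the plus strand of GRCm38.p6, at chr5:75574737-75574911 for Kit and chr1:194938571-194938745 for Cd34. Capitals mark GGGCGG, known as the GC box, and GATA, the core bound by GATA factors (TATC where it lies on the other strand).
Kit: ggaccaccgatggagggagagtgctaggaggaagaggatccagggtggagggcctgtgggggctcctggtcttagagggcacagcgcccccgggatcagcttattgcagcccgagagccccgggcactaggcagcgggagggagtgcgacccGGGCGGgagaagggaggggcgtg
Cd34: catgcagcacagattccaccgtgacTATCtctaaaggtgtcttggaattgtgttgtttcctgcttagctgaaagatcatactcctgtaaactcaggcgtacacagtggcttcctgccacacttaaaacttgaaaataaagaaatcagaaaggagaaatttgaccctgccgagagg

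The Kit stretch is 69.1% G and C and holds 10 CG pairs, and the Cd34 stretch is 43.4% G and C and holds 3. The medians over 32504 RefSeq stretches of the same place and length were 51.4% and 3. Both strands were searched. GGGCGG was found 1 time in the Kit stretch and not in that of Cd34, and 20.4% of all stretches hold it. GATA was found 1 time in the Cd34 stretch and not in that of Kit, and 44.8% of all stretches hold it. Neither stretch holds TATAAA (8.16% of all), CCAAT (24%) or the E-box CANNTG (54.5%), and GGAA, the core bound by ETS factors, was found 1 time for Kit and 4 times for Cd34 (85.9%). These matches describe letters only.

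The kept CD34-negative cells had 262944 to 938322 gene reads (median 737059) and the kept CD34-positive cells 374011 to 1154738 (median 633178). To compare detection, 200000 gene reads were drawn from each cell. At that depth the median number of genes with a read was 4525.5 in CD34-negative and 6508 in CD34-positive cells. Fcer1a, the gene for the IgE-binding chain of FcεRI, was found in 46 of 46 cells of both gates. Ly6a, which encodes Sca1, had 1 read in all kept cells, a CD34-negative one. In each gate 1 cell was left out, CD34-positive cell 3 with 0 reads of either gene in 31504 gene reads and CD34-negative cell 20 with 1 Kit read in 24565.

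Both genes marked the CD34-positive gate, but neither was found in all of its cells. Kit ranged from 0 to 668 CPM (reads per 1000000 gene reads) over the 46 CD34-positive cells, with a median of 6.02 CPM. Over the kept CD34-negative cells it ranged from 0 to 2.56 CPM, with a median of 0. Cd34 ranged from 0 to 424 CPM over the CD34-positive cells, with a median of 20.3 CPM, and from 0 to 4.08 CPM over the CD34-negative cells, with a median of 0. The ranges overlapped at the bottom only, and 23 CD34-positive cells for Kit and 26 for Cd34 lay above every kept CD34-negative cell.

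Summed over the gate, Kit stood at 109.2 CPM (105.5 to 112.99) in CD34-positive cells, against 0.179 CPM (0.0658 to 0.390) in the other gate. The ratio was 609, with a counting interval of 270 to 1716. Cd34 stood at 0.209 CPM (0.0842 to 0.431) and 59.9 CPM (57.2 to 62.7), a ratio of 286 (133 to 746). CD34-negative cell 29 held 3 of the 7 reads, and without it the ratio was 489.8, while leaving out any other cell gave 242 to 392.1. On the log2 scale with 1 CPM added, the difference was 6.55 for Kit and 5.65 for Cd34, at ranks 1 and 4 of the 12460 genes found in 10 or more kept cells. CD34 protein defined the gates, so the Cd34 difference is a check of the sort. Kit was chosen for study with this difference known.

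**Figure D1:**
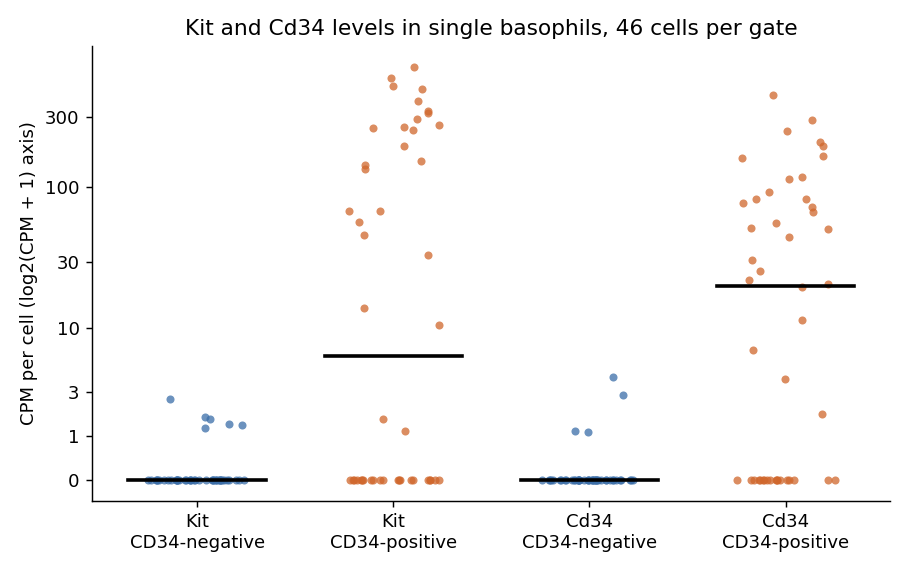
Levels of Kit and Cd34 in each kept cell, in CPM on a log2(CPM + 1) axis. Each point is 1 of 46 cells per gate and black bars are medians, which lie at 0 in the CD34-negative gate and at 6.02 and 20.3 CPM for Kit and Cd34 in the CD34-positive gate.

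Within the CD34-positive gate the levels were uneven from cell to cell. The mean over cells was 119 ± 176 CPM (SD, n = 46 cells) for Kit and 59.1 ± 90.3 CPM (SD, n = 46 cells) for Cd34, so the SD exceeded the mean for both. For Kit, 50% of the reads lay in 7 cells, and the cell with most reads held 11%. For Cd34, 50% of the reads lay in 5 cells, and the top cell held 17.5%. Cells with a read mostly had many of them. Without drawing, 21 of the 25 cells with a Kit read had 10 or more, and 23 of the 28 cells with a Cd34 read did. Among the cells with a read, the median level was 191.2 CPM for Kit and 69.7 CPM for Cd34.

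Per kilobase of exon not shared with another gene, the summed level in the CD34-positive gate was 12.3 CPM (11.8 to 12.7) for Kit and 8.39 CPM (8.0 to 8.78) for Cd34. Of the 37 CD34-positive cells with a read of either gene, 21 had the higher level per kilobase for Kit and 16 for Cd34. The lengths take the union of all exons in GENCODE M21, and the annotation used for counting was not given in the sources used here.

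The 2 genes were often found in different cells. At 200000 gene reads per cell, a Kit read was found in 23 of 46 CD34-positive cells, or 50% (34.9% to 65.1%, exact Clopper-Pearson 95% interval), and a Cd34 read in 28, or 60.9% (45.4% to 74.9%). Both were found in 16 cells, or 34.8% (21.4% to 50.2%). Kit alone was found in 7 cells, Cd34 alone in 12 and neither in 11, or 23.9% (12.6% to 38.8%). The product of the 2 shares would place both genes in 14 of the 46 cells.

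Read the other way, Cd34 was found in 16 of the 23 cells with a Kit read, or 69.6% (47.1% to 86.8%), and in 12 of the 23 cells without one, or 52.2% (30.6% to 73.2%). These intervals overlap widely. At 50000 gene reads the 4 classes held 12 cells with both, 10 with Kit alone, 12 with Cd34 alone and 12 with neither. When 10 reads at 200000 gene reads were required, they held 8, 12, 9 and 17 cells. The products of the shares were 11.5 and 7.39 cells in these settings, again within the interval of the cells with both.

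**Figure D2:**
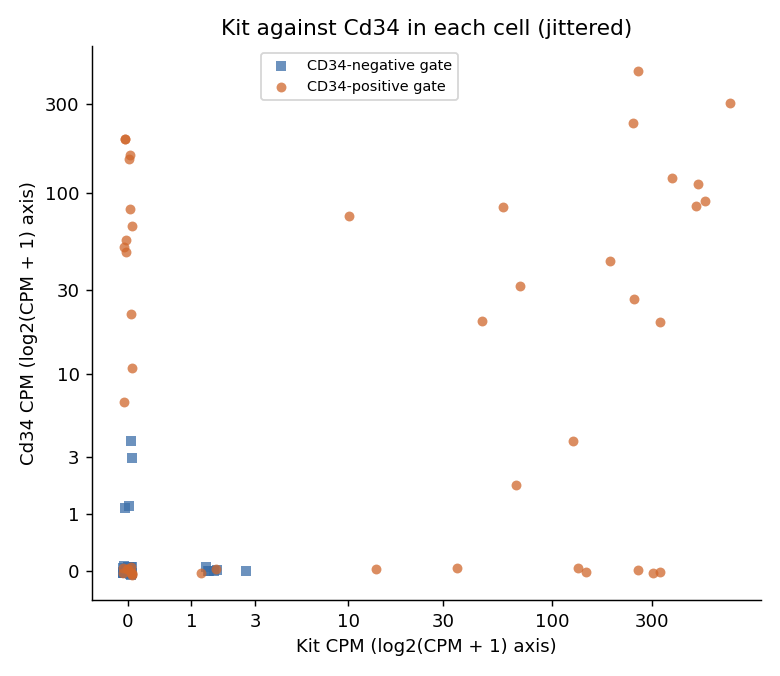
Kit against Cd34 in each kept cell, in CPM on log2(CPM + 1) axes with a small jitter. Circles are 46 CD34-positive and squares 46 CD34-negative cells, and CD34-positive cells lie along both axes as well as between them.

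**Figure D3:**
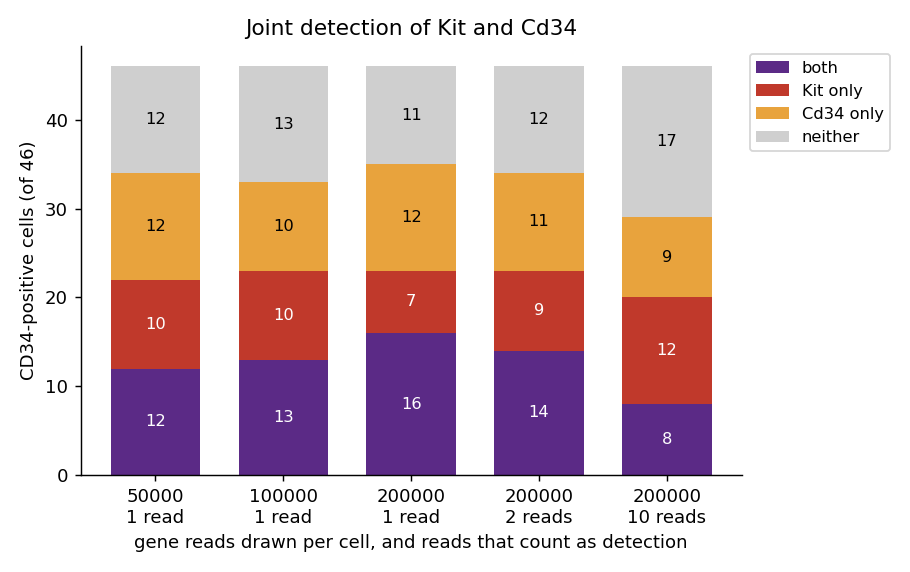
Number of the 46 CD34-positive cells with both genes, Kit only, Cd34 only or neither, by gene reads drawn per cell and by the reads that count as detection. Cells with both number 16 at 200000 gene reads and 1 read, and 8 when 10 reads are required.

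Single cells show the range of these patterns. CD34-positive cell 41 was high in both genes, with 668 CPM of Kit and 288 CPM of Cd34, and cell 40 had 268 CPM of Kit and the highest Cd34 level, 424 CPM. Cells 22 and 17 had 321 and 293 CPM of Kit with 0 Cd34 reads. Cells 33 and 19 had 203 and 191.7 CPM of Cd34 with 0 Kit reads. Of the 10 cells highest in Kit, 7 had a Cd34 read, and of the 10 cells highest in Cd34, 6 had a Kit read.

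Without drawing, 9 CD34-positive cells had 0 reads of both genes. They were not shallow, at 429015 to 739756 gene reads and 4704 to 7221 genes with a read at equal depth. A count of 0 (limit of 3 reads) allows up to 4.06 to 6.99 CPM of either gene in these cells. A level of that size lies above every Kit level, and in part above the Cd34 levels, of the kept CD34-negative cells. These 9 cells therefore could not be told from CD34-negative cells by the reads of these genes.

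Across the 46 CD34-positive cells at equal depth, Kit and Cd34 had a Spearman rho of 0.256 and a Pearson r of 0.242 on log2 values with 1 read added (0.161 without the 2 cells farthest from the median of Kit). The cells share mice, a plate and a sort, so the values are a description without p. Many values are 0, and a relation this weak in sparse counts is not a finding. In the 16 cells with a read of both genes before drawing, rho was 0.524.

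The number of genes found per cell moved with Kit more than with Cd34. At equal depth its rho was 0.459 with Kit and 0.153 with Cd34. Gene reads per ERCC spike-in read, a measure of the RNA content of a cell, had a rho of 0.334 with Kit and 0.0538 with Cd34, and total gene reads had -0.146 and -0.0415. The part that the number of genes found plays in the Kit relations below was examined only through partial correlations, which hold it fixed.

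The kept cells of the CD34-negative gate held 13 reads of the 2 genes in all. Kit had 6 reads in these, 1 each in cells 4, 16, 27, 37, 41 and 45, and the left-out cell 20 held 1 more. Cd34 had 7 reads, with 3 in cell 29, 2 in cell 31 and 1 each in cells 23 and 36. No CD34-negative cell had both, and 0 of 46 allows a share of up to 6.52% by a limit of 3 cells, or 7.71% by the exact interval. At 200000 gene reads, the gate had 2 of 46 cells with a Kit read, 4.35% (0.531% to 14.8%), and 1 with a Cd34 read, 2.17% (0.0550% to 11.5%). With 2 reads required, neither gene was found in a CD34-negative cell at that depth.

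The 4 CD34-negative cells with Cd34 reads included some that were high in Mpo, the myeloperoxidase gene of early granulocytes. Cell 36 had the highest Mpo level of the gate, 2114 CPM, cell 31 ranked 3 at 724 CPM and cell 29 ranked 8 at 8.15 CPM, while cell 23 ranked 28 at 1.15 CPM. The 6 kept cells with a Kit read had 0 to 2.56 CPM of Mpo. Cells 31 and 36 also had reads of 11 and 8 of 13 early progenitor genes at equal depth. The other 8 kept CD34-negative cells with a read of Kit or Cd34 had reads of 2 to 6. They also had more genes of any kind at that depth, 6609 and 6419 against 2818 to 5338, and cell 36 had reads of 11 G2/M and 11 S phase genes. These cells held 1 to 3 reads each, and whether they came from the cell itself was not tested.

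For scale, the CD34-negative gate held 0.183% of all Kit reads and 0.388% of all Cd34 reads of the kept cells. Of the genes with at least 1000 reads, 2 had 95% or more of them in 1 cell. One was Prg2, an eosinophil granule gene, with 50 reads in 3 of the 91 other cells, of which 48 lay in 1 cell. None of the Prg2 reads lay in the CD34-negative gate. The other gene had 11 reads in 6 of 91 other cells, with at most 5 in a cell. Reads at the level of 1 to 2 also occurred in the CD34-positive gate, in 2 cells for Kit and 2 for Cd34.

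The other genes of the Kit pathway were listed as well. Of 54 genes listed for the pathway and for Cd34, 46 were found in 10 or more kept cells. At a log2 difference of 1 or more, 4 of these were higher in the CD34-positive gate and 4 were lower, where 21.7% and 10.1% of all 12460 genes were. Their median log2 difference was -0.15, against 0.19 over all genes. With scaling to ERCC reads 17 were higher and 0 lower, where 50.96% and 1.93% of all genes were.

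The ligand gene Kitl had 1 read in each gate. None of Kitl and the related receptor genes Flt3, Csf1r, Pdgfra and Pdgfrb had reads in 10 kept cells. Flt3, a receptor of multipotent progenitors, had 0 and 13 reads in the CD34-negative and CD34-positive gates. Pdgfrb, a receptor of mesenchymal cells, had 0 and 510 reads, with 87.3% of them in 1 cell, and Pdgfra had 49 and 0 reads, all in 1 cell. Csf1r, the receptor of monocytes, had 335 and 20 reads, with 71.5% of them in 1 cell. Kit itself had reads in 25 of 46 CD34-positive cells.

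The 24 genes that relay Kit signals had a median log2 difference of -0.15, which became 0.73 with scaling to ERCC reads, where the median of all genes was 1.02. Nras, a RAS protein gene, was higher at 1.09 (0.83 with scran factors and 1.91 with ERCC scaling), at 134.6 CPM against 62.8 in the CD34-negative gate. Gab2, an adaptor that brings PI3 kinase to Kit and to FcεRI, was lower at -1.41, with 205 CPM in the CD34-positive gate against 546. Btk, a kinase downstream of both receptors, was lower at -1.41, with 126.6 against 338 CPM, and with ERCC scaling these became -0.27 for Gab2 and -0.13 for Btk. Grb2, the adaptor of the RAS pathway, was found in 46 of 46 cells of both gates, with a difference of -0.34 that turned to 0.72 with ERCC scaling. The STAT5 genes Stat5a and Stat5b stood at 0.27 and -0.67, and at 1.21 and 0.47 with ERCC scaling.

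Among 10 genes that restrain Kit signalling, Spred1 and Socs1 were higher and Dok2 was lower at this threshold. These counts lay near the shares of all genes, of which 21.7% were higher and 10.1% lower. The list median of -0.43 turned to 0.72 with ERCC scaling, where the median of all genes was 1.02. Spred1, an inhibitor of RAS and ERK signalling, stood at 2.21 CPM in CD34-negative cells and 17.3 CPM in CD34-positive ones (the order kept in what follows), a log2 difference of 2.51, and was found in 2 CD34-negative and 12 CD34-positive cells at equal depth. Socs1, a feedback inhibitor of cytokine signals, stood at 1.32 and 3.76 CPM (1.04, and 0.90 with TMM factors). It was found in only 4 and 5 cells at equal depth, with 24.8% of all its reads in 1 cell. Dok2, a docking protein that dampens RAS, stood at 105.8 and 38.3 CPM (-1.44, and -0.50 with ERCC scaling). Ptpn6, the phosphatase SHP-1, and Sh2b3, the adaptor LNK, were at -0.65 and -0.93, and at 0.19 and -0.012 with ERCC scaling.

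Of the transcription factors known to act on Kit, Myb stood apart. Myb, a factor of immature blood cells, had 253 CPM in the CD34-positive gate against 44.3 CPM, a log2 difference of 2.49, and was found in 44 cells against 23. Gata2, which binds GATA sites at Kit in mast cells and progenitors, stood at 2889 and 1919 CPM (-0.59), and Gata1 at 110.3 and 70.9 CPM (-0.63). With scaling to ERCC reads both turned positive, at 0.32 and 0.48, while Myb stood at 3.33. Mitf, the factor through which mast cells keep Kit, had 33 and 16 reads in all, with 67.3% in 1 cell.

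Of the Cd34 family, Podxl had 2 and 0 reads and Podxl2 5 and 2. Crkl, an adaptor that binds the tail of CD34, stood at 46.7 and 72.3 CPM (0.62).

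**Figure D4:**
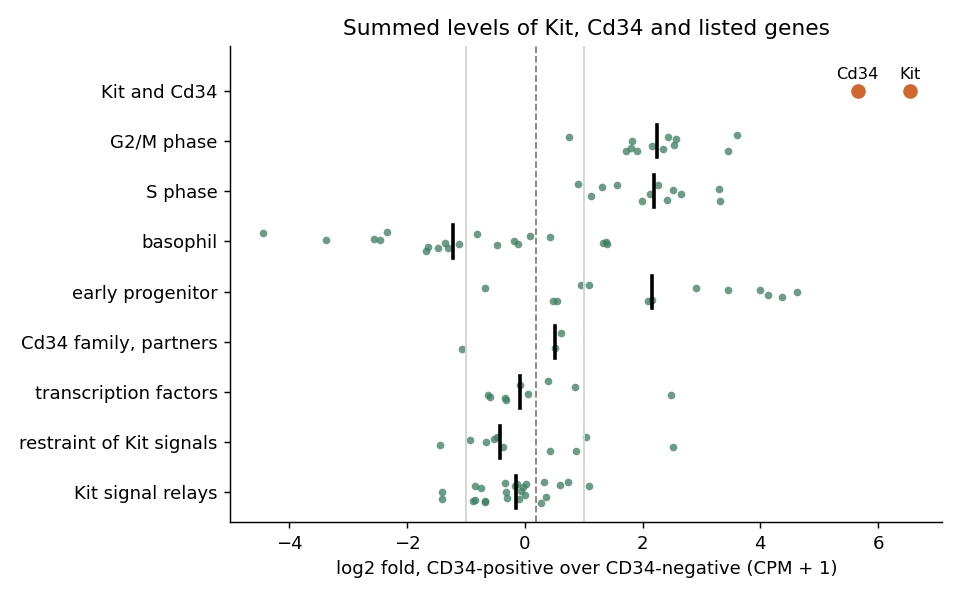
Log2 difference between the gates, CD34-positive over CD34-negative, on CPM plus 1, for Kit, Cd34 and the listed genes found in 10 or more kept cells. Each point is a gene, black bars are list medians, the dashed line is the median of all genes (0.19) and grey lines mark -1 and 1.

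Kit is also a mast cell gene, so mast cell markers were read beside it. Mcpt1, Mcpt2, Mrgprb1 and Mrgprb2 had 0 reads in all kept cells. Cma1 and Mcpt4 had 7 and 5 reads in the CD34-positive gate and none in the other. Tpsab1 and Tpsb2, the mast cell tryptase genes, had 150 and 58 reads there, with 99.3% and 98.3% of all their reads in 1 cell. The list of 10 genes summed to 0 to 341 CPM in single CD34-negative and 0 to 321 CPM in single CD34-positive cells, with medians of 0. Gzmb, a granzyme gene that other blood cells also express, made 16.36 of the 16.39 CPM summed over the CD34-negative gate and 15.1 of the 22.4 CPM over the other.

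Markers of other cells were read in the same way, and their part in the Kit and Cd34 values was not tested. The 8 neutrophil genes summed to 19.7 CPM in CD34-negative and to 67.4 CPM in CD34-positive cells (0 to 235.3 and 0 to 472.3 in single cells), of which Lcn2 alone made 19.6 and 66.6, with Ltf, Camp, Ly6g and Retnlg at 0. The 8 erythroid genes summed to 7.80 and 39.4 CPM (0 to 83.6 and 0 to 361), with Hba-a1 and Car1 at 0. Klf1, an erythroid transcription factor gene, stood at 0.748 and 18.6 CPM, and Alas2, an enzyme gene of heme synthesis, the other way at 6.97 and 2.80 CPM. The 6 monocyte and dendritic cell genes summed to 503 and 53.7 CPM (0 to 1709 and 0 to 809), with Cd209a at 0, and Ccr2, a chemokine receptor gene, made 493 and 40.5 of these. Cx3cr1, another chemokine receptor gene, stood the other way at 0.120 and 11.1 CPM.

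The 7 eosinophil genes summed to 174.5 CPM in the CD34-negative gate and 114 CPM in the other (0 to 1099 and 0 to 1405 in single cells), with Ear1 and Il5ra at 0. Ccr3, the eotaxin receptor gene, made 97.9 and 4.70 of these, Siglecf 76.5 and 60.3, and Prg2 0 and 48.05. The 7 B cell genes summed to 64.0 and 49.5 CPM (0 to 506 and 0 to 590.4), of which Cd79b made 48.98 and 45.6 and Cd79a 14.5 and 3.20. The 6 megakaryocyte genes summed to 1447 and 936 CPM (7.61 to 3916 and 3.34 to 2672), with Pf4 and Ppbp at 0, and Itga2b, an integrin gene, made 1444 and 930.4 of these.

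Of 13 early progenitor genes, 9 exceeded a log2 difference of 1 towards the CD34-positive gate, among them Mpo at 125.2 and 3119 CPM, and none was lower by that much, where 21.7% of all genes were higher and 10.1% lower. Of 20 basophil genes, 3 were higher and 11 lower by that much, with a median of -1.22. The 3 higher were Prss34 (24143 and 62565 CPM) and Mcpt8 (8049 and 21224 CPM), which encode granule proteases of basophils, and Cpa3, a carboxypeptidase gene (1938 and 4871 CPM). The sum of the list was higher in the CD34-positive gate, at 100891 CPM against 57789. With ERCC scaling 4 were higher and 6 lower with a median of -0.029, where 50.96% of all genes were higher and 1.93% lower.

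The relations of Kit and Cd34 to other genes from cell to cell are given as a description. Over the 46 CD34-positive cells at equal depth, 9847 genes with a read in at least 10 of them were compared. The rho with Kit had a median of 0.0846 over the other genes, 67.8% of them were positive and 1% lay above 0.478. With Cd34 the median was 0.0266 and 56.6% were positive. All 13 early progenitor genes had a positive rho with Kit, with a median of 0.262, and all 13 with Cd34, with a median of 0.215. The highest with Kit were Mpo (0.580), Prtn3 (0.573) and Elane (0.548), the last pair encoding proteases of the primary granule. Sox4, a factor of progenitors, followed at 0.495. Elane, Prtn3 and Sox4 had reads in 14, 16 and 21 of the 46 cells. The top cell held 26.0%, 23.8% and 26.5% of their reads. Marker genes of other lineages lay on both sides with Kit. Klf1 was at 0.486 (partial 0.401) with reads in 11 cells, and Cx3cr1, with 41.96% of its reads in 1 cell, was at 0.455. Lcn2 was at -0.175, Ccr2 at -0.291, Itga2b at -0.373, Cd79b at -0.0974 and Siglecf at 0.0701.

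Holding the number of genes found per cell fixed, the partial rho with Kit was 0.478 for Mpo, 0.434 for Prtn3, 0.447 for Elane and 0.464 for Sox4. With Cd34 the rho of the same genes was lower, at 0.140 for Mpo, 0.236 for Prtn3, 0.215 for Elane and 0.341 for Sox4. These differences between the 2 genes were not tested. Cd27, a receptor of the TNF family found on progenitors, had 0.468 with Cd34 and 0.120 with Kit. Myb was above the highest 1% for both, at 0.522 with Kit and 0.417 with Cd34.

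The listed basophil genes mostly ran the other way, though some lay near 0, such as Cpa3 at -0.015 with Kit. Of 20 basophil genes, 18 had a negative rho with Kit and 17 with Cd34, with medians of -0.24 and -0.11. Of all genes compared, 32.2% were negative with Kit and 43.4% with Cd34. Cd200r3, an activating receptor of basophils and mast cells, was lowest for Kit at -0.600, and stood at -0.376 with Cd34. It was followed for Kit by Ccl3, a chemokine gene, at -0.481 and by Il18r1, a chain of the IL-18 receptor, at -0.454. Gata2 had -0.300 with Kit over these cells. With Cd34 the lowest of the listed genes was Sos1, which activates RAS downstream of Kit, at -0.457 (partial -0.516), and Dok2 stood at -0.380, both among the lowest 1% of all genes compared.

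Cell cycle genes were weakly related to Kit. The median rho of 10 G2/M genes was -0.0476 with Kit and -0.27 with Cd34. Of the 10, 9 were negative with Cd34, where 43.4% of all genes compared were. Aurkb, a mitotic kinase gene, had -0.405 with Cd34 and -0.0737 with Kit. Of 12 S phase genes, 9 had a positive rho with Kit and 2 with Cd34, where 67.8% and 56.6% of all genes compared did. Their medians were 0.0856 and -0.20, against 0.0846 and 0.0266 over all genes. The S phase values with Kit thus lay near those of all genes. In the sums over the gates, by contrast, the CD34-positive gate was higher for 11 of 12 genes of each phase, by a log2 difference of 1 or more, where 21.7% of all genes were.

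**Figure D5:**
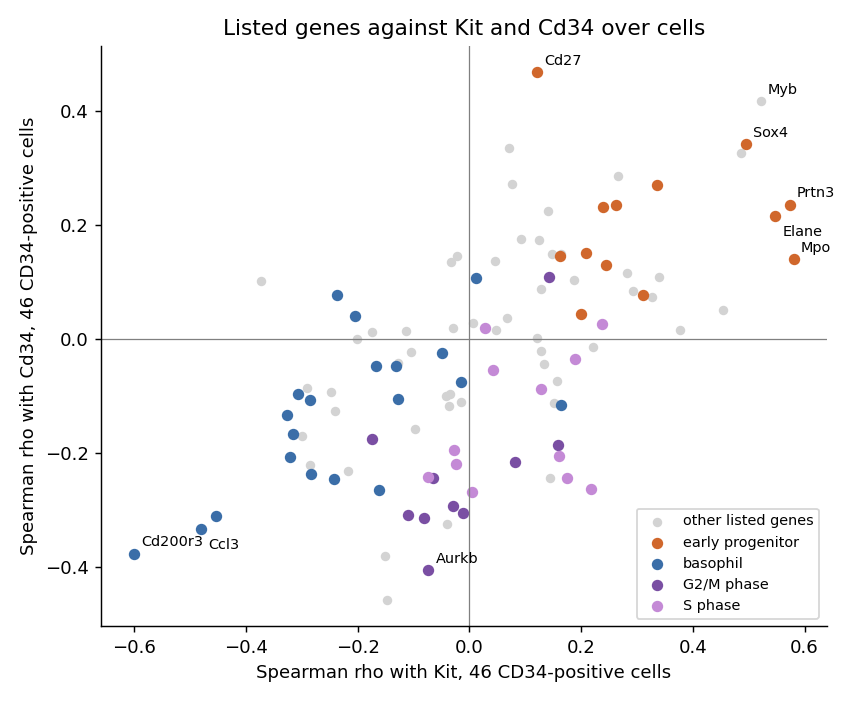
Spearman rho of listed genes with Kit (x axis) and with Cd34 (y axis) over 46 CD34-positive cells at 200000 gene reads per cell. Each point is a gene with a read in at least 10 cells, early progenitor genes lie at positive values on both axes, and Cd200r3 is lowest for Kit at -0.600.

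By rank over all genes, those most like Kit were Rpl7a (rho 0.663), Mtfr1 (0.658), Ttc27 (0.638), Dph6 (0.633) and Rplp2 (0.629). Rpl7a and Rplp2 encode ribosomal proteins, were found in all 46 cells and differed between the gates by 0.49 and 0.83 on the log2 scale. The genes most like Cd34 were Mecr (0.579), Etfa (0.534), Ccnd2 (0.533), Svip (0.523) and Nol10 (0.522), of which Ccnd2 encodes a cyclin of G1. Cd34 itself ranked 1636 among the genes compared with Kit, and Kit ranked 793 among those compared with Cd34. The order at the top depended on the draw: at 50000 gene reads per cell, 1 of the 5 genes for Kit and 0 of the 5 for Cd34 were again among the first 5.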

How the data were processed

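The authors deposited one table of read counts per gene and cell, not normalized. GSNAP, HTSeq 0.5.3p3 and the build mm10 are listed per the submitters' processing notes. Strand setting and annotation release were not given in the sources used here. Of all reads in the table, 32.4% were counted to genes, and the 5 summary categories held 63.6% and stayed out. Symbols matched 45143 of 46078 identifiers.

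A cell entered with 50000 or more gene reads, 1000 or more genes, under 20% mitochondrial and under 50% ERCC reads. Sums have exact Poisson intervals and shares exact Clopper-Pearson intervals, at 95%. The log2 difference uses CPM plus 1. Reads carry no molecular identifiers. No doublets were called, as wells received single cells. The calculations were tested on simulated data. Alternative scaling took scran 1.30.0 size factors and, from edgeR 4.0.16, TMM factors in R 4.3.3, and all else ran in Python 3.11.15 with scipy 1.17.1, numpy 2.4.6 and pandas 2.3.3.

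The 2 genes, the lists and the measures were chosen with earlier results of these data known. Named are Kit, Cd34, list members, the 5 genes with the highest rho with each, and genes with 95% of at least 1000 reads in 1 cell. Alternatives were other depths of drawing, detection minimums, scalings, pseudocounts and cell or gene filters. Not reported here by name are 2 listed genes and 1 of the 2 genes with 95% of their reads in 1 cell.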

Additional observations from a re-analysis of the deposited data

How the results depend on the processing

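The CD34-negative shares rest on 3 cells at 200000 gene reads, and they moved with both depth and the reads required. With 10 reads required, the shares of CD34-positive cells were 37% for Cd34 and 17.4% for both genes. Without the cell filter and at 24000 gene reads they were 31.9% and 14.9%. The CD34-negative share of Kit was 0% at 50000 and 100000 gene reads and with 2 or 10 reads required. That of Cd34 was 0% with 2 or 10 reads required, without the cell filter at 24000 gene reads, and without the 1 cell that held its read, and 4.35% at 100000 gene reads. With no drawing the shares were 13% for Kit and 8.70% for Cd34. Expected over all draws, the shares were 50.9%, 58.1% and 32.4% for Kit, Cd34 and both, and 4.32% and 3.36% for Kit and Cd34 in the CD34-negative gate. Counting only levels above every kept CD34-negative cell gave 50%, 56.5% and 30.4%. This choice was made after the data were seen, as was the ratio without each cell. Leaving out each cell in turn gave 48.9% to 51.1%, 60% to 62.2% and 33.3% to 35.6%, and 2.22% to 4.44% and 0% to 2.22% in the CD34-negative gate.

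The log2 differences of Kit and Cd34 were 8.61 and 7.60 with a pseudocount of 0.1 CPM, 3.55 and 2.78 with 10 CPM, and 7.71 and 6.51 scaled to ERCC reads. Over all genes the median moved to 1.02 with ERCC scaling and to 0.0056 with scran factors. The share of genes higher in the CD34-positive gate was 58.9%, and 88.9% and 50.2% with these. The rho of Kit and Cd34 was 0.167 at 50000 gene reads, 0.524 in the cells with both, and 0.191 as Pearson r of per-cell log2 CPM. It ran from 0.202 to 0.295 when each cell was left out. Of the 5 genes most like Kit, 1 remained at 50000 gene reads, 3 given genes per cell and 2 among genes in at least 20 cells. For Cd34, 0, 3 and 3 remained. The pathway genes at a log2 difference of 1 or more were 17 with ERCC scaling and 2 with TMM factors, in place of 4. Of all 12460 genes, 6349 and 2211 were higher by that much in these settings, in place of 2698.

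With ERCC scaling the medians of the signal relays (0.73), restraint genes (0.72), transcription factors (0.96), mast cell (0.36), monocyte and dendritic cell (1.24) and megakaryocyte (0.68) lists turned positive. With no filter on low genes the median of the Cd34 family became -0.084 and that of the mast cell list 0.024. Of the 60 alternative list medians, 36 stayed within the quartiles of their list, 16 left them with the same sign or at 0, and 8 changed sign. The mast cell and neutrophil medians are of 1 gene each, so any change leaves their quartiles. The cause of these changes was not tested.

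No paired analysis was possible because a cell's number in its title names that cell alone and nothing here is tested.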
